A study of Mus musculus with 2 samples.

Results

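REV-ERBα binding was examined around 3 mouse genes of lymphocyte migration, Cxcr4, Ccr6 and Rgs1. The peaks were those of the authors' list whose midpoint fell in a fixed mm9 window around each gene: chr1:130450000-130560000 for Cxcr4, chr17:8380000-8480000 for Ccr6 and chr1:146050000-146130000 for Rgs1. These windows held 14 of the 8884 listed peaks, and none of the windows was empty. The 3 genes were selected on the listed peaks and their tags in these windows, so the values below are descriptions and carry no test.

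The data come from 1 chromatin immunoprecipitation (ChIP) library made with an antibody to REV-ERBα and from 1 input library, unprecipitated genomic DNA, both of wild-type mouse T helper 17 (Th17) cells. The cells were grown in primary culture, so they stand for cultured cells and not for Th17 cells in tissue; no treatment, age or sex is given in the sources used here. The ChIP library held 6390234 tags (aligned reads). No sample was replicated, so every interval below covers counting error only, and no measurement of RNA was used to check the cell type.

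CXCR4 and CCR6 are chemokine receptors, membrane proteins that signal through Gi proteins and steer cells along a chemokine gradient. CXCR4 recognises CXCL12, which holds lymphocytes in bone marrow and lymphoid tissue. CCR6 recognises CCL20, is a surface marker of Th17 cells and brings them to mucosal and inflamed sites. RGS1 acts inside the cell on the same pathway: it speeds GTP hydrolysis by G protein α subunits and so shortens chemokine receptor signals. REV-ERBα is a repressor of the circadian clock that recruits the NCOR corepressor. It binds the ROR response element, an A/T-rich stretch followed by AGGTCA, which is also bound by RORγt, the factor that directs Th17 differentiation.

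The promoters of the receptor genes are shown for this element. RefSeq promoter sequences (build GRCm38.p6) matched Cxcr4, with 1 start, and Ccr6, with 2 starts. The 250 bases before each start were searched on both strands for the ROR response element and for the core AGGTCA, which can overlap it. Capitals mark the element where it was found. The Cxcr4 sequence is chr1:128592300-128592549, minus strand, and the Ccr6 sequence is that of the first start, chr17:8235793-8236042, plus strand.
Cxcr4: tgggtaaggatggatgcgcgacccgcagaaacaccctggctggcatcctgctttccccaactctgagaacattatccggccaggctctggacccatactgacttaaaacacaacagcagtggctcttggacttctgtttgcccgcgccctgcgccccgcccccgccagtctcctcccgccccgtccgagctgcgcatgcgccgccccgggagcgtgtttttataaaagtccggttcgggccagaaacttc
Ccr6: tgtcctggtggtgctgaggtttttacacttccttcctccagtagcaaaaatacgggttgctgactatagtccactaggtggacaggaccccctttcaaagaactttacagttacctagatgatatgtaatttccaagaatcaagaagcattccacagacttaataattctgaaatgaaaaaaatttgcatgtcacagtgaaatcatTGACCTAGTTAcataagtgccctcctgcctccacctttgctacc

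The Ccr6 promoter held the element once, 34 to 44 bases before the first start and on the strand opposite to the gene, where it reads TAACTAGGTCA. Across 32851 RefSeq starts, 0.332% had the element in the same 250 bases and 14.0% had AGGTCA. Neither was found before the second Ccr6 start or before the Cxcr4 start. The Cxcr4 stretch was richer in G and C (61.2%) than that of the first Ccr6 start (41.2%). The peaks are in mm9 and these sequences in another build, so whether a peak covers either promoter was not examined, and a match is a description of letters and not of binding.

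The peaks could lie nearer to another gene than to the one a window is named for. In the RefSeq order of genes, Cxcr4 stands between the long noncoding RNA Gm41950 and the small nuclear RNA Gm23056, with Thsd7b the next protein-coding gene beyond. Ccr6 stands between the protein-coding gene Cep43 and the long noncoding RNA Gm33799, with Rnaset2a and Mpc1 as the next protein-coding neighbours. Rgs1 belongs to a run of related genes, with Rgs13 on one side and Rgs21 and Rgs18 on the other, separated from Rgs1 by pseudogenes and a noncoding RNA.

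All peaks were 306 bp wide and had passed the authors' filter of 4-fold over input. The 14 peaks held 314 ChIP tags, 0.195% of all tags in peaks. Their median was 16.5 tags per peak, against 15 in the whole list. Of the 14, 10 had at least 15 tags, while 51.3% of all listed peaks did. The authors' fold of ChIP over scaled input had a median of 18.5 in the windows and 10.6 in the list. The listed fold reached 8 in 11 of the 14 peaks, against 61.5% of the list. Both comparisons rest in part on peaks with no input tag, whose listed fold is set by the lowest input value, 0.5 scaled tags: 6 of the 14 peaks and 16.8% of the list. Such peaks were then put at a lower bound, taken against 3 input tags as the upper limit for a count of 0. That limit is set on the upper side only. The intervals given elsewhere leave room on both sides, and their upper limit for a count of 0 would be higher. With it these bounds would be lower. This bound takes the ChIP count as exact and leaves out its counting error. The median was then 8.37 in the windows and 7.41 in the list. Of the 14 peaks, 7 reached 8, against 46.3% of the list. On that scale, which lowers 6 of the 14 window peaks but 16.8% of the list, the window peaks were near the list. Among peaks with an input tag the median fold was 10.8 in the windows and 8.73 in the list. It reached 8 in 5 of the 8 such window peaks, against 53.8% of such peaks in the list. The fold over the surrounding 10000 bp was closer to that of the list: its median was 7.79 in the windows and 7.78 in the list, and it reached 8 in 6 of 14 peaks, against 47.5% of the list.

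**Figure D1:**
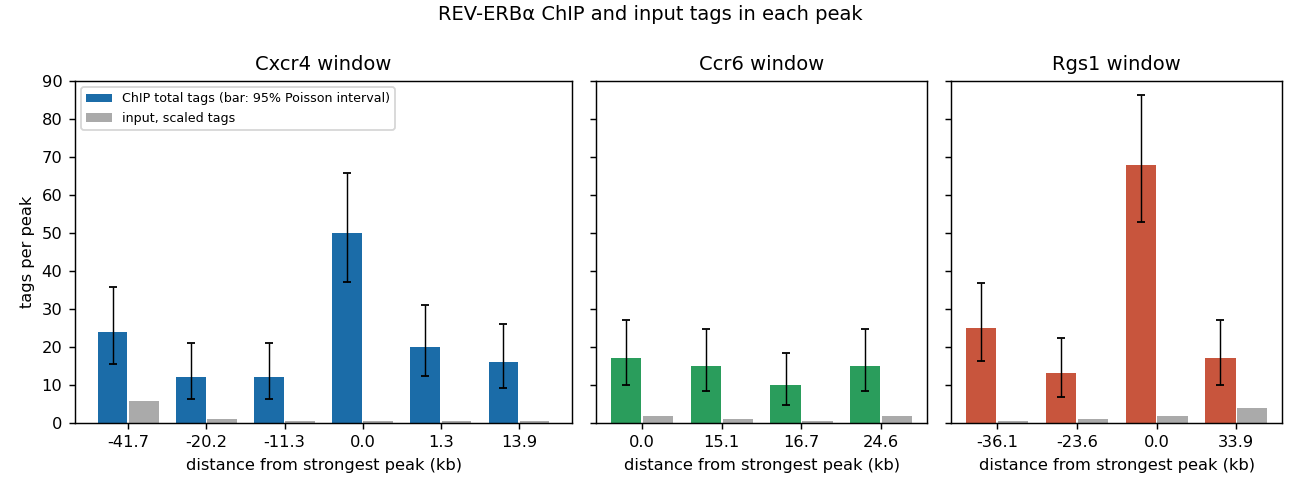
ChIP total tags (coloured bars, with exact 95% Poisson intervals) and input tags scaled to the ChIP depth (grey bars) for the 14 peaks, in order of position; the label under each peak is its distance in kb from the strongest peak of the window. A single peak stands out in the Cxcr4 window (50 tags) and in the Rgs1 window (68 tags), whereas the 4 Ccr6 peaks hold 10 to 17 tags.

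The Cxcr4 window had the most peaks, 6 in 110 kb. Together these peaks held 134 ChIP tags (95% Poisson interval 112 to 159) and 7 input tags, or 6.62 at the ChIP depth. Tags outside listed peaks are not counted in this or any other sum for a window or tile. The strongest peak lay at chr1:130508324-130508630 and had 50 tags (interval 37.1 to 65.9), a score of 42 and no input tag. The score is a peak height given by the peak caller. Only 21 of the 8884 listed peaks had more tags. The list gives this peak a fold over input of 106, the second highest of all, but that value was set by the lowest input value in the list. Against the limit of 3 input tags, and with its ChIP count taken as exact, the peak was 17.6-fold higher than input.

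A second Cxcr4 peak lay 1303 bp from the strongest one, between midpoints, at chr1:130509627-130509933. It had 20 tags (interval 12.2 to 30.9), a score of 18 and no input tag, and stood 7.05-fold over the limit of 3 input tags. The Poisson intervals of these neighbours do not overlap. The listed local fold was 12.9 for the stronger peak and 4.20 for the weaker one, near the filter of 4; each lies inside the 10000 bp against which the other was compared. Among the 599 pairs of neighbouring peaks within 3 kb in the list, the median pair held 34 tags. The Cxcr4 pair held 70, and 15 pairs, itself included, held at least as many. Its stronger peak had 2.50 times the tags of the weaker one, a ratio that 0.501% of the pairs reached; the median ratio was 1.23.

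The other 4 Cxcr4 peaks, with 12 to 24 tags, lay on both sides of the pair. The peak at chr1:130466593-130466899, 41731 bp below the strongest, had 24 tags and a score of 22. Its input was the highest of the 14 peaks, 5.7 scaled tags, and its fold over input was the lowest, 4.23 (exact binomial interval 1.69 to 12.7). Over its local region the same peak stood 12.5-fold, so it ranked last of the window on one background and second on the other. The peak at chr1:130488113-130488419 had 12 tags, a score of 11 and 0.9 scaled input tags. Its neighbour 8928 bp above, chr1:130497041-130497347, also had 12 tags, with a score of 10 and no input tag. Tag counts as high as 12 were reached by 80.2% of the list, so these are among its weaker peaks. The uppermost peak, chr1:130522268-130522574, had 16 tags, a score of 12 and no input tag.

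Input stood at the lowest value in 4 of the 6 Cxcr4 peaks, in 1 of the 4 Ccr6 peaks and in 1 of the 4 Rgs1 peaks. In the whole list 16.8% of peaks had no input tag. Summed over the Cxcr4 peaks, ChIP exceeded scaled input 20.3-fold (exact binomial interval 9.56 to 51.3). Every summed peak had already passed the filter of 4-fold over input, so a sum above 4 was fixed in advance. The interval does not cover that selection, and the same holds for the summed folds of the other windows. The listed peaks nearest to the window lay 4456 bp below it, with 15 tags, and 7187 bp above it, with 13 tags.

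The Ccr6 window had 4 peaks in 100 kb, and these held the fewest tags, 57 in all (interval 43.2 to 73.9) over 5 input tags. The summed fold over scaled input was 12.1 (interval 4.88 to 38.6), which overlaps those of the other windows. No Ccr6 peak stood above the others: they had 17, 15, 10 and 15 tags in order of position, with overlapping Poisson intervals. The peak with 17 tags lay at chr17:8402947-8403253 and had a score of 15 and 1.9 scaled input tags. The other 3 peaks formed a chain in which each midpoint was within 10 kb of the next.

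That chain began with the peak at chr17:8418088-8418394, which had 15 tags, a score of 14, 0.9 scaled input tags and the highest local fold of the window, 10.6. The next peak, chr17:8419657-8419963, followed after 1569 bp and was the weakest of the 14, with 10 tags, a score of 10 and no input tag. Against the limit of 3 input tags, and with its ChIP count taken as exact, it was 3.53-fold higher than input, under the authors' filter of 4. The chain ended 7879 bp further on at chr17:8427536-8427842, with 15 tags, a score of 13 and 1.9 scaled input tags. In contrast to the Cxcr4 pair, the close Ccr6 pair held 25 tags, fewer than the median pair, and 88.6% of close pairs in the list held at least as many. No other peak was listed in the 52311 bp between this midpoint and the end of the window, and the next peak above lay 85.4 kb beyond its end, with 11 tags. Below the window the nearest peak was 15.9 kb away and had 9 tags.

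The Rgs1 window also had 4 peaks, in 80 kb, but these held 123 ChIP tags (interval 102 to 147) over 7 input tags. Its summed fold over scaled input was 18.6 (interval 8.76 to 47.2). The peak at chr1:146086208-146086514 carried 55.3% of the tags in the window's peaks, and the other peaks together held 55. This peak had 68 tags (interval 52.8 to 86.2), a score of 52 and 1.9 scaled input tags, or 2 input tags. Only the region on chromosome 2 with very high input had more tags in the list. The Poisson intervals of the 68-tag Rgs1 peak and the 50-tag Cxcr4 peak overlap, so their order is not resolved.

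The other Rgs1 peaks lay 12482 to 33932 bp from their neighbours in the window, so none had a second one within 10 kb there. The lowest, chr1:146050139-146050445, had 25 tags, a score of 22 and no input tag. It stood 8.82-fold over the limit of 3 input tags, with its ChIP count taken as exact. The peak at chr1:146062621-146062927 had 13 tags, a score of 10 and 0.9 scaled input tags. The uppermost, chr1:146120140-146120446, had 17 tags, a score of 13 and 3.8 scaled input tags, a fold of 4.50 (interval 1.47 to 18.4). The limits of this window fall close to peaks on both sides. The 25-tag peak lies 292 bp inside its lower limit, and a peak of 27 tags, chr1:146130046-146130352, lies 199 bp beyond its upper limit and is not among the 14.

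**Figure D2:**
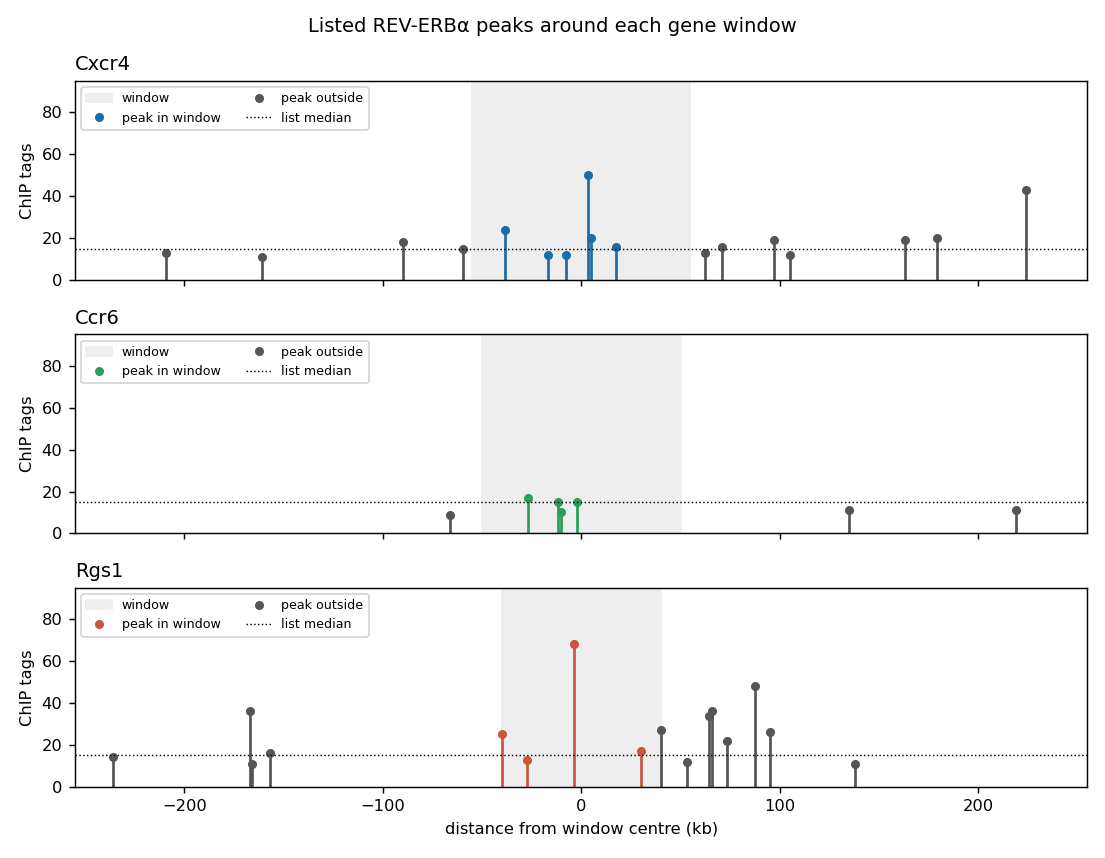
Listed peaks within 250 kb of the centre of each window; the x axis is the distance from that centre in kb and the height is the ChIP tag count. Shading marks the window, coloured stems its peaks, grey stems the peaks outside, and the dotted line the list median of 15 tags. Peaks go on above the Rgs1 window, with 8 in the next 100 kb, whereas the Ccr6 window has 1 peak within 100 kb on each side.

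The 68-tag Rgs1 peak stood far above input but less far above its surroundings. Its listed fold was 36.0 over input (interval 9.58 to 303) and 7.67 over the local region. Dividing tags by the local fold gives a local background of 8.87 ChIP tags per peak width, second in the whole list after the chromosome 2 region. The 50-tag Cxcr4 peak had a local background of 3.88 tags and the list a median of 1.93. Of the 30 listed peaks with at least 50 tags outside the chromosome 2 region, 4 had a local fold under 8, the Rgs1 peak included, and the median local fold was 13.4. The 4 peaks of the Rgs1 window ran from 6.26 to 7.92 in local fold, so none reached 8. In the whole list 47.5% of peaks reached 8, with a median of 7.78. All of these Rgs1 values lay between the quartiles of the list, 5.98 and 10.6. In the Ccr6 window local folds ran from 5.34 to 10.6 and in the Cxcr4 window from 4.20 to 12.9. How far a peak's own tags enter its local background is not given in the sources used here.

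**Figure D3:**
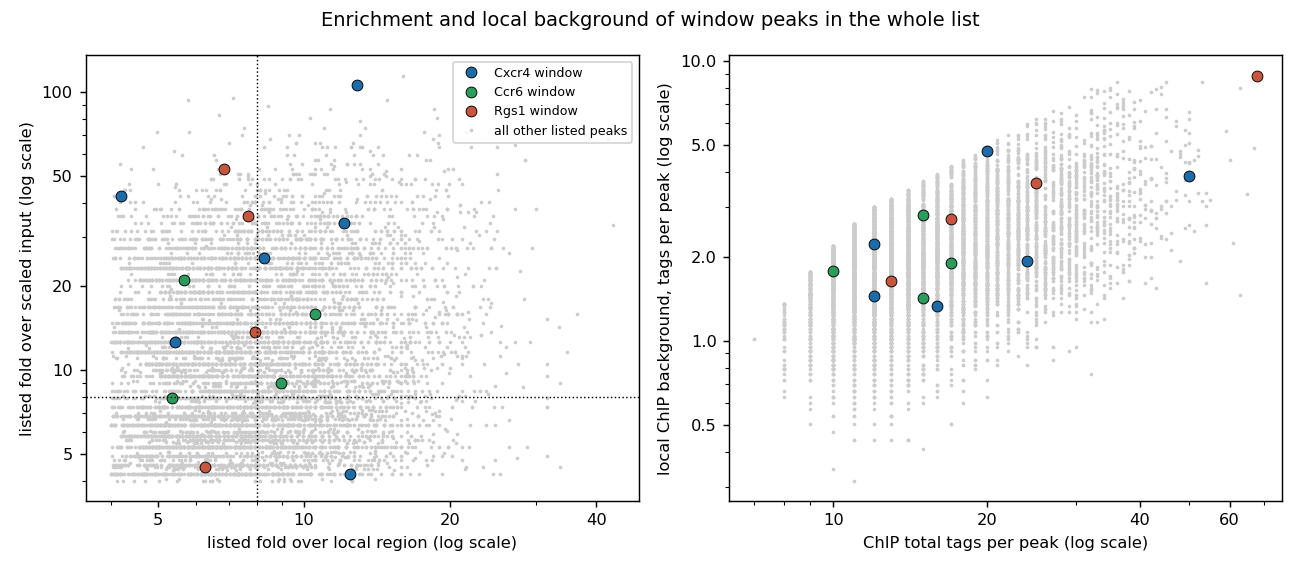
Left, listed fold over scaled input against listed fold over the local region, with dotted lines at 8; right, local ChIP background in tags per peak width against total ChIP tags. All axes are logarithmic, each point is 1 peak, and the grey points are the other listed peaks without the chromosome 2 region. Peaks with no input tag are drawn at their listed fold, which is not a measured ratio. The 4 Rgs1 peaks lie left of a local fold of 8, which 47.5% of all listed peaks reach. The 68-tag peak has the highest local background plotted, 8.87 tags.

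Spacing differed among the windows. Within 10 kb of another listed peak, inside or outside the window, lay 4 of 6 Cxcr4 peaks, 3 of 4 Ccr6 peaks and 1 of 4 Rgs1 peaks, the last through the peak beyond the window's limit. In the whole list 33.7% of peaks had such a neighbour. The median distance between adjacent midpoints was 11.3 kb for Cxcr4, 7.88 kb for Ccr6 and 23.6 kb for Rgs1. The nearest listed peak to the 68-tag Rgs1 peak was 23.6 kb away. Among 30 such strong peaks (50 tags or more), 13, the Rgs1 peak included, had none within 20 kb, and 4, among them the strongest Cxcr4 peak, had one within 3 kb.

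All 3 windows were rich in peaks for their width. Tiles of 110 kb laid end to end over all chromosomes averaged 0.384 peaks, and 0.464% of 23077 tiles held at least the 6 of the Cxcr4 window. Of 25387 tiles of 100 kb, 1.82% held at least the 4 peaks of the Ccr6 window. For Rgs1, 1.20% of 31735 tiles of 80 kb held at least 4. By tags in listed peaks the order changed. For Rgs1, 0.154% of tiles held at least the 123 tags of the window's peaks. The share was 0.234% for the 134 tags of the Cxcr4 peaks and 2.47% for the 57 of the Ccr6 peaks. The windows were placed around known peaks and the tiles were not, so these shares describe the list and are no measure of chance.

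**Figure D4:**
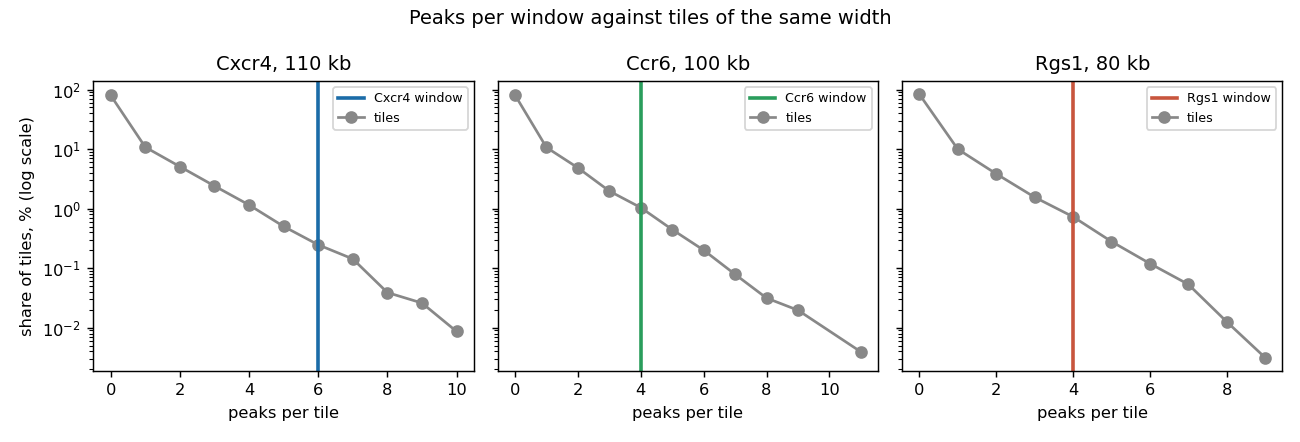
Share of tiles (percent, logarithmic axis) by number of listed peaks per tile, for tiles of 110, 100 and 80 kb over all chromosomes (grey points), with the number of peaks in the window of that width as a coloured line. The lines stand at 6, 4 and 4 peaks; 0.464%, 1.82% and 1.20% of tiles hold that many or more.

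The authors also list a clonality ratio, which rises as tags share fewer positions than expected and could not exceed 2. It ran from 0.84 to 1.23 over the 14 peaks, with a median of 0.975, against 0.98 in the list. The caller's score was at least 0.75 of the tag count in each peak, and 3 of the 14 had a score of 10, next to the threshold of 9; in the whole list 26.0% had a score of 9 or 10. These were the 12-tag Cxcr4 peak at 130497041, the 10-tag Ccr6 peak and the 13-tag Rgs1 peak.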

How the data were processed

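REV-ERBα ChIP-seq was measured in 1 library of mouse Th17 cells against 1 input library. Per the submitters' processing notes, the tools were CASAVA 1.8.2, Bowtie and HOMER on mm9, with no version for the last pair of tools. Per the file headers, peaks of 306 bp, at least 612 bp apart, were called by HOMER findPeaks at a false discovery rate of 0.001 (9 tags), with enrichment of 4-fold at a Poisson p of 1e-04 against both input and the local 10000 bp, with at most 1 tag per bp considered.

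Total tags are deposited counts. The normalized tag signal (scaled to 10000000 tags) and the input signal (scaled to the ChIP depth) are the authors'. The deposited fold values are linear ratios, the deposited p-values from the caller's Poisson model are not printed, and the score is the deposited peak height. Tags divided by fold gave input in steps of 0.945 scaled tags, with all 7392 peaks above the lowest value on whole steps within a relative 0.02; the lowest value was read as no input tag, with a limit of 3 tags (2.84 scaled).

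Windows, distances and tiles were computed with Python 3.11.15, numpy 2.4.6, pandas 2.3.3, scipy 1.17.1 and matplotlib 3.10.9, and checked on simulated peaks. Tag intervals are exact Poisson and fold intervals exact binomial, both 95%; tags are not known to be independent molecules. Every member and peak is described, and genes next to a member were named by annotation order. Genes, windows, motifs and the fold of 8 were chosen with earlier results of these data known. The RefSeq tables are of GRCm38.p6 and gave names, order and promoters only; other migration genes were not analysed here, because no mm9 annotation was used. Alternatives changed peak thresholds, window limits, tiles and neighbour distances.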

Additional observations from a re-analysis of the deposited data

How the results depend on the processing

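Of 48 recomputed values, 30 stayed close to those reported: counts within 1.5 times, other values within their counting interval. Widening the windows by 50 kb on both sides raised the count to 12 peaks for Cxcr4 and 10 for Rgs1. Narrowing them by 10 kb, chosen after seeing the data, left 2 Rgs1 peaks. With a local fold of at least 8, 2 Ccr6 peaks and 0 Rgs1 peaks were left, and 0 Rgs1 peaks passed 8-fold when the local region replaced input. In the list 47.5% of peaks reach that local fold. With peaks without an input tag at their lower bound, chosen after seeing the data, 2 Cxcr4 peaks reached 8-fold over input, against 5 at the listed fold. In the list 46.3% of peaks reached 8 at that bound and 61.5% at the listed fold. The bound lowers 4 of the 6 Cxcr4 peaks but 16.8% of the list. With only peaks at least 8-fold over input, the tags summed to 110 for Cxcr4 and 42 for Ccr6. Scores in place of tags summed to 97 for Rgs1. For spacing, only neighbours inside the same window were counted here, unlike the counts given above. On this count 2 Cxcr4 peaks had a neighbour within 5 kb, against 4 within 10 kb. For Rgs1, 2 peaks had one within 20 kb, against 0 within 10 kb. With only the peaks of 15 or more tags, tiles with as many peaks as the window made up 0.705% for Cxcr4, 1.55% for Ccr6 and 1.04% for Rgs1. For the 1 Mb around each window, chosen after seeing the data, the shares of 1 Mb tiles were 1.34%, 5.14% and 1.98% in the same order. Where a stricter filter or another width was used, the change follows from fewer peaks or other limits; other causes were not tested. No paired analysis was possible because there is 1 ChIP sample and 1 input sample, which also left no replicate to leave out. At 6390234 tags, weak sites stay under the caller's threshold of 9, so a stretch with no listed peak may still be bound. Some listed peaks have 8 total tags, so that threshold is not a limit on the total tags given here.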

Other observations

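Peaks beyond the Rgs1 window varied in strength. Within 100 kb above its upper limit lay 8 listed peaks with 216 ChIP tags, 11 to 48 per peak with a median of 26.5, while none lay within 100 kb below its lower limit. The strongest of them, at chr1:146177475-146177781, had 48 tags, 2.8 scaled input tags and a fold over input of 16.9. A close pair at chr1:146154120-146154426 and chr1:146155580-146155886 had 34 and 36 tags. Further below the window, at chr1:145923191-145923497, a peak of 36 tags stood 38.1-fold over input and 22.4-fold over its local region. Rgs13, Rgs21 and Rgs18, relatives of Rgs1 that also act on G protein α subunits, are its nearest protein-coding neighbours in RefSeq order; which of these genes the peaks lie nearest to was not examined.

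Around the Cxcr4 window the peaks were weaker, with 4 of 12 to 19 tags within 100 kb above it and 2 of 15 and 18 tags within 100 kb below it. The strongest within 250 kb of the window's centre, apart from those in the window, was at chr1:130729041-130729347, with 43 tags. Near Ccr6 the strongest outside peak within 500 kb, at chr17:8132536-8132842, had 41 tags and no input tag.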
